A study of Homo sapiens with 6 samples.

Results

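Lost distal KDM3B regions are stretches of DNA, far from the annotated starts of protein-coding transcripts, at which KDM3B was called in control HCT116 cells. They were no longer called after KDM3A and KDM3B were depleted, and no H3K9me2 region was called beside them in the depleted cells. They were selected from the deposited region lists by 3 limits. A region of the control KDM3B list had to share not 1 bp with any region of the depleted KDM3B list, its centre had to lie more than 10 kb from every transcription start site (TSS) of a protein-coding transcript, and no H3K9me2 region of the depleted cells could lie within 1 kb of either edge. Of the 17638 control KDM3B regions, 6335 (35.9%) passed all 3 limits. TSSs of other transcripts, also those of protein-coding genes, did not count. A region nearest to JAG1 thus lay 227.5 bp from a TSS of SLX4IP, and a region in EPHA2 lay 2594.5 bp from another TSS of that gene. With the TSSs of all transcripts counted, 3793 regions remained. Loss, distance and absence of H3K9me2 therefore describe how these regions were chosen and are not results about them.

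KDM3B and its relative KDM3A are histone demethylases that remove methyl groups from mono- and dimethylated lysine 9 of histone H3 (H3K9me1 and H3K9me2), marks that go with silent chromatin. DNA far from promoters can hold enhancers, short stretches where sequence-specific factors such as AP-1 (dimers of the FOS and JUN families), the TCF/LEF factors of the Wnt pathway and their co-regulators bind, and it also holds the binding sites of CTCF, which anchors chromatin loops. In colorectal cancer cells, TCF/LEF factors together with β-catenin keep Wnt target genes active, and the study examined KDM3A/B as erasers of H3K9me2 at such genes.

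HCT116 is an established human colorectal cancer cell line with constitutively active β-catenin. The control cells (HCT116/Scrsh) expressed a scramble shRNA and the depleted cells (HCT116/ABsh-1) an shRNA against both KDM3A and KDM3B, although the sample labels speak of siRNA. KDM3B ChIP, H3K9me2 ChIP and input DNA were sequenced from each population, 6 libraries in all, and the 2 inputs were not analysed here. With 1 library per antibody and population there was no replicate, so values are set side by side without any test between the cell populations.

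The control KDM3B list held 17638 regions and the depleted list 8046, and the H3K9me2 lists held 11645 regions in control and 88855 in depleted cells. Read numbers are not in the lists, so sequencing depth is unknown, and unequal depth or pull-down between the 2 KDM3B libraries cannot be told apart from loss of binding. Of all control regions, 74.3% had no overlap in the depleted list, 53.7% lay more than 10 kb from a protein-coding TSS and 87.5% had no H3K9me2 region of the depleted cells within 1 kb. Among the 8484 distal regions free of H3K9me2, 6335 were lost, which is 74.7% and close to the share over the whole list. The loss was thus about as frequent here as in the control list at large. The other 2149 distal regions free of H3K9me2 overlapped a depleted region and are called kept distal regions below.

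Of the 8 lost distal regions with the highest score, the sequences of 4 are given to show what such regions hold, followed by the highest-scoring one with a CTCF motif and by those nearest to the TSSs of the Wnt target genes JUN, MET, AXIN2 and TIAM1. All are read from the plus strand of hg19, 5′ to 3′, at most 300 bases around the centre. Capitals mark exact matches on either strand to AP-1 (TGACTCA or TGAGTCA), TCF/LEF (CTTTGAA or CTTTGAT) or the consensus of CTCF, and each line names the nearest protein-coding gene by TSS. The regions nearest to the Wnt target genes BMP4, CCND1, EFNB2, ID2, JAG1 and TCF4 are not printed. None of these held such a match within its own bases, so matches are over-represented among the printed Wnt target sequences.
CD38, chr4:15807551-15807850: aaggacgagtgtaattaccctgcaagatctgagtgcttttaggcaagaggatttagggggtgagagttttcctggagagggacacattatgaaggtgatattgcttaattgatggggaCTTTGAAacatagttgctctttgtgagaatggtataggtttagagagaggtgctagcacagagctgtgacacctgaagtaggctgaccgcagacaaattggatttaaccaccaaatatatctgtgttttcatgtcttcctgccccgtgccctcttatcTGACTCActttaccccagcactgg
MSI2, chr17:55453301-55453600: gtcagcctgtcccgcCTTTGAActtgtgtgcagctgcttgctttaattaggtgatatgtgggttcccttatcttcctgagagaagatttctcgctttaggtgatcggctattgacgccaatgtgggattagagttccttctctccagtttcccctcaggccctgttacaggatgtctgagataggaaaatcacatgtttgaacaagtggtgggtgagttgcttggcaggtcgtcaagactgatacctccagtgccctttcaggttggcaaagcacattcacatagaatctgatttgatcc
TEX14, chr17:56736401-56736700: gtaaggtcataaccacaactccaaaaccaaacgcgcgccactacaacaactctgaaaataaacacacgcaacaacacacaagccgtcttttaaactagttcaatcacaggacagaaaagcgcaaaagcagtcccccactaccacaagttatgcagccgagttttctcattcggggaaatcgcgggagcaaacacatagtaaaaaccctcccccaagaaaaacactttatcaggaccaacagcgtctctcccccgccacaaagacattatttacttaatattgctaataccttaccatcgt
ZDHHC6, chr10:114250301-114250600: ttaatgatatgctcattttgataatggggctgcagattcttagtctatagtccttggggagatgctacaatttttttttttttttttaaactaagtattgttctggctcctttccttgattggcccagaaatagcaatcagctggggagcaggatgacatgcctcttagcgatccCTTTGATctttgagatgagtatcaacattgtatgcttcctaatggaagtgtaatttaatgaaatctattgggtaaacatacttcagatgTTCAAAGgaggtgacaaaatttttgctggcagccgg
NLRP12, chr19:54345501-54345800: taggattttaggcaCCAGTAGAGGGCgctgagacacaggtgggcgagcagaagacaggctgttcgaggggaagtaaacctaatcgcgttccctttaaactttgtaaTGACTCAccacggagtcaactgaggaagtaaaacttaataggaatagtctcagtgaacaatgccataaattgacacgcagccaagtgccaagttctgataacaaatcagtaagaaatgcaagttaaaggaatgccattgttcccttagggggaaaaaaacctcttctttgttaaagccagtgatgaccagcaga
JUN, chr1:59314601-59314900: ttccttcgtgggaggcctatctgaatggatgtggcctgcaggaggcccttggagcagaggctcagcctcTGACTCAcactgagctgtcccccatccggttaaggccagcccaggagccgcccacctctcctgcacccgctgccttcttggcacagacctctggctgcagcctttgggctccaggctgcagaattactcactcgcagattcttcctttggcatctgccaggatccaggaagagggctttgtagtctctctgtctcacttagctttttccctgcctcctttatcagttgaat
MET, chr7:116271101-116271200: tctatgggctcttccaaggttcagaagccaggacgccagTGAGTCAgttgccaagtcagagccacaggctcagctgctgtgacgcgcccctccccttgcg
AXIN2, chr17:63538801-63538900: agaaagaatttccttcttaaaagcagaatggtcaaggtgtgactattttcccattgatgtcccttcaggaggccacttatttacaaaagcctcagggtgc
TIAM1, chr21:32726701-32726800: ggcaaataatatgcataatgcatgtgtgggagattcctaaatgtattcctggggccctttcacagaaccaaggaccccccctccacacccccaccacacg

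The region with the highest score, 195, was 800 bp wide, chr4:15807301-15808100, in an intron of CD38, the gene of an NAD-consuming ectoenzyme, 10.5 kb from its TSS, and held both an AP-1 and a TCF/LEF match. The region at MSI2, which encodes an RNA-binding protein of stem cells, scored 194 and lay in an intron 81.4 kb from the nearest protein-coding TSS. The nearest depleted KDM3B region was 76.2 kb away from the former and 45 kb from the latter. A region in an intron of TCF7L2, the gene of the main TCF factor of the intestinal epithelium, had one of the highest scores, 148. A depleted KDM3B region was called 13.4 kb from it. The VTI1A intron, 43.1 kb from the TSS of ZDHHC6, held a region with the same score of 148 and 2 TCF/LEF matches. The region of the TEX14 intron scored 159, had none of the 3 motifs, and overlapped RNU1-60P, a pseudogene of the U1 small nuclear RNA. In the sequence near JUN, itself the gene of an AP-1 subunit, an AP-1 match lay in a region of score 58. MET, which encodes the receptor of hepatocyte growth factor, had an AP-1 match in a region of score 16. The sequences near AXIN2 (score 13), a feedback inhibitor of the Wnt pathway, and TIAM1 (score 14), an activator of the GTPase RAC1, held none of the 3 motifs. A depleted KDM3B region lay 0.3 kb from the TIAM1 one.

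The other 5 of the 10 highest-scoring regions were an intron of ZNF704 (164), an intergenic region nearest to PRAG1 (160), one nearest to TMEM67 (152) that lay 129.5 bp from the TSS of a non-coding transcript, one nearest to NUDCD1 (142) with AP-1 letters, and chr19:54345401-54345900 near NLRP12 (138) with AP-1 and CTCF letters. The 5 widest regions beyond these were 700 to 800 bp wide with scores of 99 to 126. A depleted KDM3B region touched one of them, at an exon of the non-coding gene LNCRNA-IUR (score 126). The others lay in an exon of POLR3GL (114), in introns of MAPKAPK3 (100) and EPHA2 (121), a receptor tyrosine kinase gene, and 60.5 bp from the TSS of a non-coding transcript (99, nearest to FAM161A).

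Genes of small RNAs were looked for after such genes had been seen among the highest-scoring regions. A small RNA gene lay in 11 lost distal regions (0.174%, 0.097 to 0.311%), in 0.14% (0.0475 to 0.41%) of kept distal regions and in 0.404% of regions lost within 10 kb of a TSS. It lay in 3 of the 20 lost distal regions with the highest scores, namely RNU1-60P (159), a U3 small nucleolar RNA gene (135) and SNORD104 (134). Near-identical copies of these genes share reads, which the study kept only at a unique position. The B box letters of tRNA promoters (GTTCGANTC), a motif also added after the data were seen, were in 26 lost regions (0.41%, 0.28 to 0.601%), in 0.233% (0.0994 to 0.544%) of kept ones and in 0.0846% of distal windows. Of the 26, 8 lay in chr6:26327901-28710800, which holds clusters of histone and tRNA genes, and 3 in chr14:21093401-21121400. The highest-scoring of the 26, at 118, lay in an intron of TCF7L2.

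Lost distal regions were mostly short and of low score. The score is a whole number that the authors deposited without naming its meaning and was used only to rank regions within the list. Scores of lost distal regions ran from 2 to 195 with a median of 19, and quartiles of 13 and 31. Kept distal regions had a median of 52, with quartiles of 31 and 78, and the regions lost within 10 kb of a TSS a median of 20. A single 100-bp window made up 4306 of the lost distal regions (68%) against 637 of the kept ones (29.6%), and 622 lost regions were 300 bp or wider. The study's methods ask for 2 neighbouring significant windows, which the single windows of the deposited list do not show.

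Among distal regions free of H3K9me2, the share lost fell with the score and width of the control region. It was 97.2% (Wilson 95% confidence interval 96.4 to 97.8%) at scores of 2 to 15, 86.2% at 16 to 24, 72% at 25 to 46 and 38.9% (36.8 to 41%) from 47 upwards. For single windows it was 87.1%, for 200 bp 63.3%, and for 300 bp or more 47.2% (44.5 to 49.9%). These intervals, as all below, cover counting error only, since regions are not replicates. The lost regions were thus concentrated among the lower-scoring and narrower control regions. The score also rose with width, with medians among lost regions of 15 for 100 bp, 36 for 200 bp and 61 for 300 bp or more. Whether a low-scoring region was lost or only missed at the unknown depth of the depleted library was not tested. When the control list was reduced to the 8046 regions of highest score, as many as the depleted list holds, 2006 of the lost distal regions (31.7%) remained, each with a score of at least 26.

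**Figure D1:**
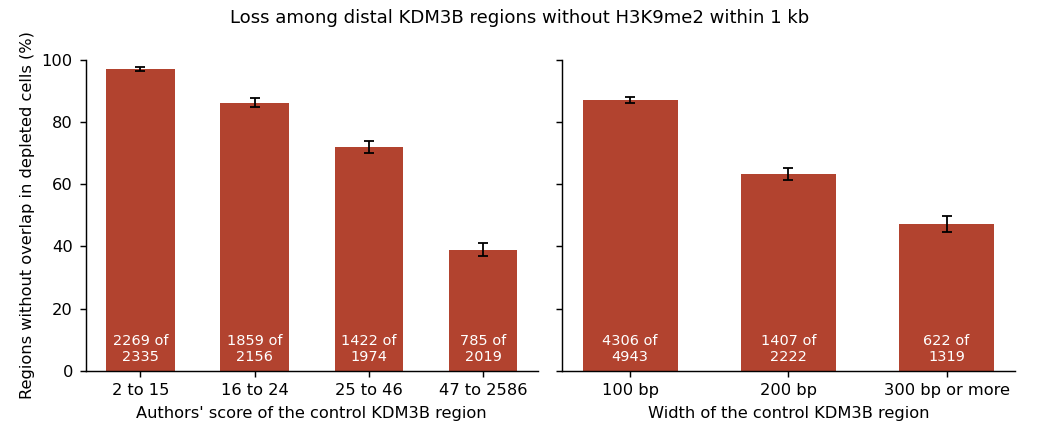
Share of distal control KDM3B regions without H3K9me2 within 1 kb that had no overlap in the depleted list (vertical axis, %), by the authors' score (left) and by width (right). Bars are shares, error bars Wilson 95% intervals and the numbers lost regions of all regions; the share fell from 97.2% at the lowest scores to 38.9% at the highest.

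Depleted KDM3B regions were nevertheless found close to some lost ones. A depleted region touched 313 lost distal regions without sharing a base, and 440 (6.95%) had one within 1 kb and 936 (14.8%) within 10 kb. At EFNB2, the gene of ephrin-B2, a pair of lost regions with scores of 54 and 11 each lay 0.1 kb from a depleted KDM3B region. Such regions could not be told apart from a shift in the called position. Removing all lost regions with a depleted one within 1 kb left 5895.

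The limits of the selection cut through a continuous distribution. Just inside the 10 kb limit were regions nearest to POU5F1B (10022.5 bp from the TSS, score 18) and PPP1R26 (10024.5 bp, score 25). Just outside it were regions nearest to KRT39 (9999.5 bp, score 58), IER5L (9989.5 bp, score 19) and ABLIM1 (9988.5 bp, score 23). Since regions and H3K9me2 calls fall on 100-bp windows, 53 lost distal regions stood 1100 bp from an H3K9me2 region and another 53 stood exactly 1000 bp away and were left out. Those inside included regions near PRDM16 (score 16), ENSG00000289710 (score 11) and SLC5A9 (score 12), and those outside included regions near ACOT7 (score 8), ATL2 (score 32) and EDAR (score 19). A further 679 lost distal regions had H3K9me2 within 1 kb in the depleted cells.

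By gene feature, lost distal regions were close to distal DNA in introns of protein-coding genes and in intergenic DNA, and departed from it in the other 3 features. Introns of protein-coding genes held 2392 of their centres, 37.8% (36.6 to 39%), whereas they make up 37.4% of all DNA more than 10 kb from a protein-coding TSS. For kept distal regions the share was 33.4% (31.4 to 35.4%). Intergenic DNA held 41.4% of the lost and 45.3% (43.2 to 47.4%) of the kept centres, and 41.7% of distal DNA. Introns of non-coding genes held 14.3% (13.4 to 15.1%) of lost centres and 17.3% of distal DNA. Exons of protein-coding genes held 3.5% (3.08 to 3.99%) against 2.25%, and exons of non-coding genes 3.05% (2.65 to 3.5%) against 1.26%. A TSS of a non-coding transcript lay within 1 kb of 428 lost regions (6.76%, 6.16 to 7.4%) and of 7.63% (6.58 to 8.83%) of the kept ones, against 3.08% of distal DNA.

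**Figure D2:**
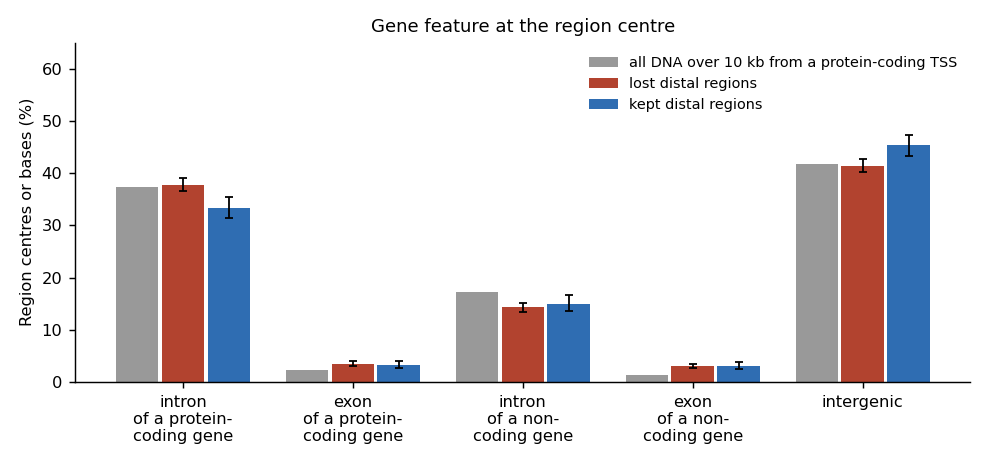
Share of region centres of lost (red) and kept (blue) distal regions in each gene feature, beside the share of bases of all DNA over 10 kb from a protein-coding TSS (grey), in %. Error bars are Wilson 95% intervals; introns of protein-coding genes held 37.8% of lost and 33.4% of kept centres.

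By distance from genes, the median lost distal region lay 45.5 kb from the nearest protein-coding TSS, with quartiles of 22.8 and 105 kb and a maximum of 2562 kb, and the median kept one 37.6 kb. Their number per Mb of distal DNA was highest next to the 10 kb limit, 4.28 between 10 and 20 kb, and decreased to 3.85 between 20 and 50 kb, 3.17 between 50 and 100 kb, 1.78 between 100 and 500 kb and 0.706 beyond. The kept regions decreased more steeply, from 1.75 to 0.13 per Mb, so that 2.45 regions were lost for each kept one at 10 to 20 kb and 5.41 beyond 500 kb. Per Mb of distal DNA, chromosome 17 held 4.78 lost regions, chromosome 19 held 4.72 and chromosome 22 held 4.46, whereas chromosome X held 1.16. Kept regions were also dense on chromosomes 17 (2.27 per Mb) and 19 (2.01) and sparse on X (0.328). Of the 10 highest-scoring lost regions, 8 lay on chromosomes 8, 10 and 17, and of the 100 highest 29 did, whereas these chromosomes, singled out after the values were seen, hold 14.7% of all lost distal regions. Among the 100 highest, chromosome 8 held 11% against 5.51% of all lost distal regions, and chromosome 17 held 13% against 3.85%. Chromosome 10 was not over-represented there, with 5% of the 100 highest against 5.34%. HCT116 is known for gains of parts of these chromosomes. Copy number was not measured here, and its part in the scores was not tested.

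Lost distal regions had a GC content of 48% in the median (quartiles 43 and 54.5%), and kept ones 50.2%. Over windows of 300 bp around the centre the medians were 46.7% and 48.7%, whereas the 7839077 windows of that width that tile distal DNA had a mean of 40.2%. The GC content was centred on the region itself, with 48.4% in the 100 bp after the centre and 43.3% at 900 to 1000 bp. A window of a lost region held a median of 4 CpGs, and that of a region lost within 10 kb of a TSS 12.

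Motifs were sought as exact letters on both strands in the 300 bp around each centre, and a match is a description of the letters, not proof of binding. AP-1 (TGACTCA or TGAGTCA) was found in 1169 lost distal regions, or 18.5% (17.5 to 19.4%), in 10.6% (9.33 to 11.9%) of kept distal regions and in 4.61% of all distal windows. At a distance of 2 kb from the same centres it was found in 5.37% of windows. Distal windows weighted to the GC content of the lost regions held it in 5.06%. TCF/LEF (CTTTGAA or CTTTGAT) was found in 941 lost regions, 14.9% (14 to 15.8%), in 11.2% (9.95 to 12.6%) of kept ones, in 12.7% of all distal windows, and in 9.46% of those with the GC content of the lost regions. In the flanks of lost regions it was 10.8%. CTCF went the other way, with 802 lost regions, 12.7% (11.9 to 13.5%), against 435 kept ones, 20.2% (18.6 to 22%), and only 0.0968% of all distal windows.

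Lost distal regions thus held AP-1 and TCF/LEF letters more often, and the CTCF consensus less often, than kept ones, with intervals that did not overlap, but no test was made. Since the GC content of lost and kept regions differed, each was also set against distal windows of its own GC content. AP-1 was then 3.65 times as frequent in lost and 2.11 times in kept regions. TCF/LEF was at 1.57 and 1.33 times, a smaller contrast, and CTCF at 68.6 and 90.6 times. The same order was seen among regions with scores above the median of the control list, where AP-1 was in 20.5% of lost and 10.7% of kept regions, TCF/LEF in 16.8% and 11.3%, and CTCF in 14.4% and 20.4%. It was also seen at every width. Among single 100-bp windows AP-1 was in 17.3% (16.2 to 18.5%) of lost and 8.01% (6.14 to 10.4%) of kept regions, and among regions of 300 bp or more in 25.4% (22.1 to 29%) and 13.2% (10.9 to 15.9%). For TCF/LEF in single windows the intervals overlapped, with 14.3% (13.3 to 15.4%) and 12.2% (9.92 to 15%). Distal regions called only in depleted cells and without depleted-cell H3K9me2 within 1 kb, 1469 in all, were chosen for comparison after the values above were seen. They held AP-1 in 11.6% (10.1 to 13.4%), TCF/LEF in 10.7% (9.21 to 12.4%) and CTCF in 12.3% (10.7 to 14.1%). Regions lost within 10 kb of a TSS held AP-1 in 9.26%, TCF/LEF in 8.57% and CTCF in 6.33%.

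**Figure D3:**
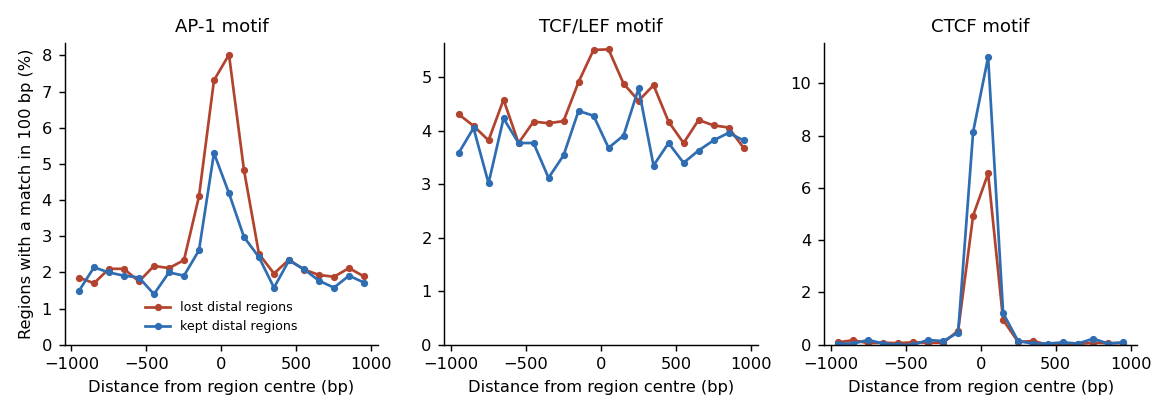
Share of lost (red) and kept (blue) distal regions with a motif match in each 100-bp step (vertical axis, %) against the distance from the region centre (bp). AP-1 reached 8.02% in lost and 5.3% in kept regions, CTCF 6.55% and 11%, and TCF/LEF 5.52% and 4.79%.

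AP-1 and CTCF matches were most frequent at the called centre, and TCF/LEF matches showed little of this. For AP-1 in lost regions the share per 100-bp step was 7.31% and 8.02% on either side of the centre and 1.86% and 1.89% at 900 to 1000 bp. TCF/LEF in lost regions was at 5.51% and 5.52% beside the centre and between 3.68% and 4.85% beyond 200 bp, and in kept regions at 4.28% and 3.68% beside the centre and 4.79% at 200 to 300 bp. CTCF went from 0.0947% to 6.55%. AP-1 and CTCF letters were together in 41 lost regions (0.647%) and AP-1 and TCF/LEF in 215 (3.39%), while 3769 lost regions (59.5%) had none of the 3. Within the lost regions, CTCF was in 8.68% (7.59 to 9.91%) at scores of 2 to 15, in 15.5% (14 to 17.2%) at 16 to 25 and in 14.3% (12.9 to 15.9%) at 26 to 195. AP-1 was in 18%, 16.7% and 20.5%, so neither changed steadily with the score.

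The other motifs had overlapping or touching intervals in lost and kept regions, with the exception of the GC box. The letters of GATA factors, written AGATAA, were in 15.2% (14.3 to 16.1%) of lost and 12.8% (11.5 to 14.3%) of kept regions, but in 22.1% of all distal windows and 14.4% of those with the GC content of the lost regions. RUNX (TGTGGTT) was in 7.36% and 6.38%, TEAD (GGAATGT) in 5.84% and 5.49%, FOXA (TGTTTAC or TATTTAC) in 8.27% and 8.14%, and HNF4A (CAAAGTCCA) in 0.616% and 0.651%. Over all distal windows these were in 5.91%, 4.43%, 11.2% and 0.389%. The GC box (GGGCGGG), a promoter element, was in 4.03% (3.57 to 4.54%) of lost and 5.54% (4.65 to 6.59%) of kept regions, whose intervals did not overlap, in 1.03% of distal windows, and in 23.5% of regions lost within 10 kb of a TSS. Distal windows with the GC content of lost regions held it in 2.48%, and those with that of kept regions in 3.38%. Relative to these shares it was alike, 1.62 times as frequent in lost and 1.64 times in kept regions. The ETS motif (CCGGAAG) was in 2.21%, 2.37% and 0.583%, the E-box (CACGTG) in 4.33%, 5.49% and 2.58%, and the CRE (TGACGTCA) in 13 lost regions (0.205%, 0.12 to 0.351%), 0.512% (0.286 to 0.914%) of kept regions and 0.0919% of distal windows.

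The control H3K9me2 list, which covers 0.059% of the assembled genome, was not itself used in the selection, but the exclusion of depleted-cell H3K9me2 also removed regions beside control H3K9me2. A control H3K9me2 region lay within 1 kb of 23 lost regions, 0.363% (0.242 to 0.544%), and of 1 kept region, 0.0465% (0.00821 to 0.263%). When only overlap with depleted-cell H3K9me2 was refused, the share of lost regions was 0.702% (0.531 to 0.927%). Within 10 kb there was one for 7.85% (7.21 to 8.53%) of lost and 9.07% (7.93 to 10.4%) of kept regions, and the median gap was 89.8 and 85.4 kb. Only 4 lost regions overlapped control H3K9me2, all on chromosomes 21 and Y, and chromosome Y held 29 lost distal regions but only 1 kept one. The region with the highest score among the 23 scored 60, nearest to TPTE on chromosome 21. In the depleted cells, H3K9me2 regions covered 0.966% of the assembled genome. Beyond the 1 kb left free by the selection, they covered 0.656% of the bases at 1 to 2 kb from lost regions, 1% at 5 to 10 kb and 1.21% at 50 to 100 kb. Around kept regions the cover was higher at each distance from 1 kb on, 0.889%, 1.58% and 1.51%. The values at 1 to 2 kb are not free of the selection in lost or kept regions. H3K9me2 regions that reached from there to within 1 kb were also refused.

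**Figure D4:**
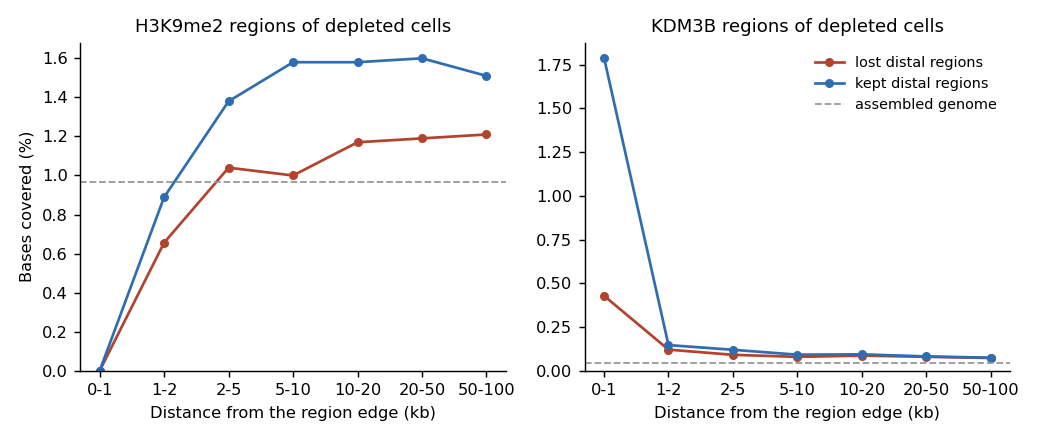
Bases covered by H3K9me2 regions (left) and KDM3B regions (right) of the depleted cells (vertical axes, %) against distance from the edge of lost (red) and kept (blue) distal regions (kb), with the share of the assembled genome as a dashed line. H3K9me2 cover was 0 within 1 kb by selection and 1.21% around lost and 1.51% around kept regions at 50 to 100 kb.

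Most lost distal regions stood alone. Another one lay within 50 kb of 2399 (37.9%), 955 (15.1%) had one within 10 kb, and the median distance to the next was 86.2 kb. When regions with centres at most 50 kb apart were joined, 3936 remained single and 35 stretches held 5 or more, with 231 regions in all. The stretch with most regions, 11 with scores of 8 to 71, was chr11:65187501-65276100, and 2 of its regions lay in the long non-coding RNA gene NEAT1 and 2 in MALAT1, both abundant nuclear RNAs. A kept distal region lay between them. The next, chr17:57833801-57930700, held 10 regions with scores of 10 to 76, 6 of them in VMP1, which encodes a protein of autophagosome formation. The stretch chr7:130516701-130605200 held 9, all within the long non-coding gene LINC-PINT, and chr17:70335501-70475500 held 9, all within LINC00511, with SOX9 as the nearest protein-coding gene. The last, chr2:224539801-224725000, held 9, of which 8 lay in AP1S3, the gene of a clathrin adaptor subunit.

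By nearest TSS, lost distal regions were assigned to 3986 protein-coding genes, 24% of the 16628 that are nearest to any distal DNA, and 2646 of these had a single region. The nearest gene is a label of position and not a target. SOX9, a transcription factor of intestinal stem and Paneth cells, had the most, 17 regions with a lowest score of 13, a median of 26 and a highest of 101, and no kept one. They lay on both sides of the gene, from 697 kb upstream to 358 kb downstream, and 8 held AP-1 and 5 held TCF/LEF letters. SOX9 is also nearest to much distal DNA, 1.32 Mb. Its density was 12.9 per Mb against 2.69 for all distal DNA and 4.78 for that of chromosome 17, which holds it. Genes were named here for their number of regions, so a high density follows in part from that choice. The part of copy number in these counts was not tested. RAD51B, which acts in homologous recombination, had 13, all within the gene itself, with scores up to 85. USP9Y, a deubiquitinase gene of the Y chromosome, also had 13, with a median score of 6, and none was closer than 656 kb. TRIB1, a pseudokinase gene, and RUNX1, which encodes a transcription factor, had 12 each.

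The RUNX1 regions all lay within the gene's own span and had a lowest score of 6, a median of 14.5 and a highest of 82, and 5 held AP-1 letters. POU5F1B, a retrogene of POU5F1, had 11, SLC39A11, the gene of a zinc transporter, had 10, and TCF7L2, KLF14 and ZFHX3, which all encode transcription factors, had 9 each. The 9 regions nearest to TCF7L2 had scores of 8, 9, 10, 12, 18, 22, 35, 118 and 148. A pair of them stood out, since the scores of the other 7 were all at or below 35. A kept region with a score of 146 lay between these 2. KLF14 had the highest density of these 10 genes, 47 per Mb, with 0.191 Mb of distal DNA nearest to it. Its 9 regions are the same as those of the stretch within LINC-PINT, and 2 kept distal regions lay between them.

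**Figure D5:**
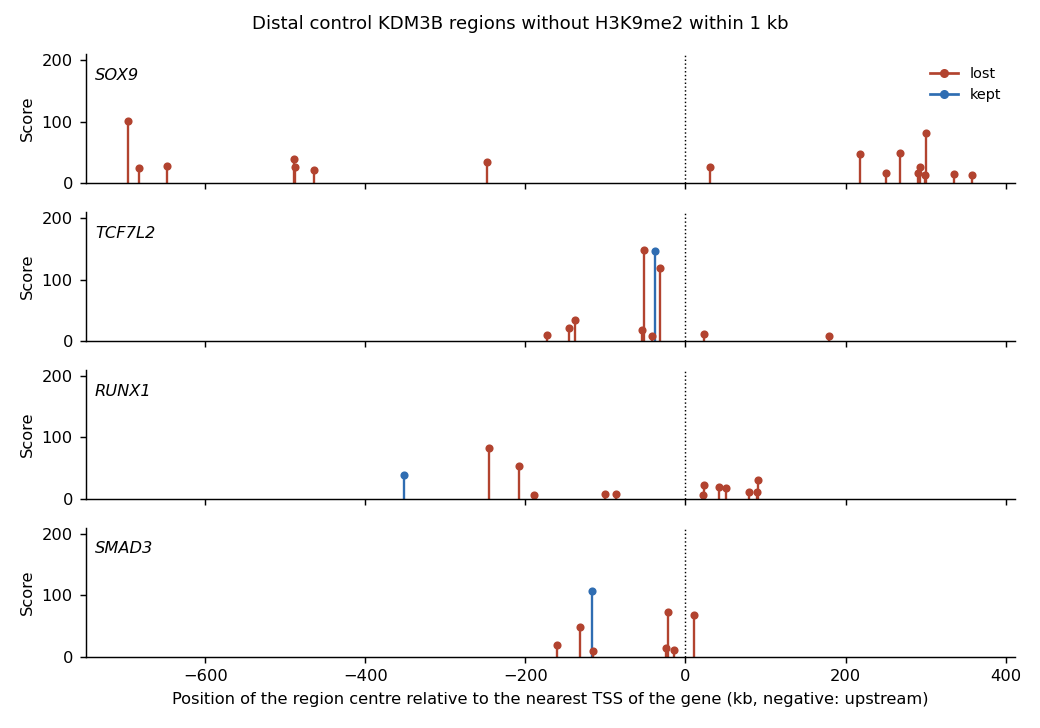
Distal control KDM3B regions without H3K9me2 within 1 kb around SOX9, TCF7L2, RUNX1 and SMAD3, with the authors' score (vertical axis) against the position of the centre relative to the nearest TSS of the gene (kb, negative upstream of that TSS); red regions were lost, blue ones kept. SOX9 had 17 lost and no kept region, and TCF7L2 9 lost and 1 kept.

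Among the 31 Wnt target genes that the study lists, 29 are nearest to some distal DNA and 12 of these had a lost distal region, 41.4% (25.5 to 59.3%) against the 24% of all such genes. These genes are nearest to more distal DNA than others, with a median of 0.21 Mb against 0.0486 Mb. Per Mb they had 4.33 lost regions against 2.69. The 36 regions had scores of 7 to 121 with a median of 17. AP-1 letters were in 9 of them (25%, 13.8 to 41.1%) and TCF/LEF letters in 3 (8.33%, 2.87 to 21.8%). These intervals include the 18.5% and 14.9% of all lost distal regions. TIAM1 had 7 regions with scores of 7 to 33 and one kept region. A depleted KDM3B region touched the TIAM1 region of score 27 and lay 0.3 kb from that of score 14. BMP4, the gene of a ligand of the TGF-β family, had 6 with scores of 8 to 78, none closer than 104 kb. MYC, the proto-oncogene, had 5 and EFNB2 had 5, the nearest at 64.5 and 63.5 kb. At MYC, a depleted KDM3B region touched the region of score 22 and another lay 0.3 kb from a region of score 29. The EFNB2 pair described above also had a depleted region close by. Such regions could not be told apart from a shift in the called position. FGF20, AXIN2, JUN, JAG1 and CCND1 had 2 each, and ID2, TCF4 and MET 1 each. The AXIN2 regions scored 13 and 62, at 16 and 63.4 kb, and those of CCND1, the cyclin D1 gene, scored 9 and 13. The AXIN2 region of score 13, in an intron of AXIN2, lay 6050.5 bp from another TSS of that gene. The CCND1 region of score 9, in an exon of CCND1, lay 5125.5 bp from another TSS of that gene.

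In the wider Wnt pathway, 23 of 71 genes had a lost distal region (32.4%, 22.7 to 43.9%), or 2.68 regions per Mb. Besides TCF7L2 these included RNF43 and ZNRF3, ubiquitin ligases that remove Wnt receptors, each with 2 regions (highest scores 70 and 40), the ligand gene WNT3 with 2 (77), the receptor gene FZD1 with 2 (23), CTNNB1, which encodes β-catenin, with 2 (29), and LGR4, a receptor of R-spondins, with 1 (18). Of 46 regulators of intestinal stem cells and lineages, 19 had one (41.3%, 28.3 to 55.7%), or 3.12 regions per Mb, and 17 of their 47 regions were those at SOX9. KLF4 had 5 regions, KLF5 had 3, and OLFM4, PROX1 and EPHB2 had 2 each, whereas CDX2, a master regulator of intestinal identity, had 1 with a score of 12.

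Genes of TGF-β and BMP signalling had a lost distal region in 18 of 33 cases, 54.5% (38 to 70.2%), with 4.35 regions per Mb. SMAD3, a signal transducer of TGF-β, had 7, with scores of 9, 11, 14, 19, 48, 68 and 72, and a kept region of score 107. TGIF1, TGFBR2 and SMAD6 had 5 each, and BMP7 had 4. Of 35 genes of EGFR and MAPK signalling and its feedback, 16 had one (45.7%, 30.5 to 61.8%, 2.96 per Mb), among them the ligand gene TGFA and the phosphatase genes DUSP5 and DUSP10 with 4 each. The EGFR gene itself had 1, with a score of 46 and AP-1 letters. Epithelial adhesion and cytoskeleton genes had one in 15 of 39 cases (38.5%, 24.9 to 54.1%), with 8.14 regions per Mb. Their distal DNA was small, with a median of 0.04 Mb per gene. Lost distal regions at large were densest near the 10 kb limit, 4.28 per Mb between 10 and 20 kb. The part of distance in the density of this list was not tested. EZR, which encodes ezrin, led with 5 regions and a highest score of 133, and KRT8, KRT19 and CDH1 (E-cadherin) had 1 each with scores of 85, 74 and 7.

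Genes of AP-1 and stress-response factors had one in 8 of 20 cases (40%, 21.9 to 61.3%, 4.49 per Mb), with 4 regions at IER2 and 3 at FOS. Notch genes had one in 9 of 21 cases (6.23 per Mb) and genes of epithelial-mesenchymal transition in 6 of 14 (1.57 per Mb). Of the 22 genes of H3K9 methyltransferases and demethylases, 4 had one (18.2%, 7.31 to 38.5%), namely KDM4B with 2 regions and KDM1A, PRDM2 and KDM4C with 1 each. The intervals of the H3K9, AP-1, wider Wnt and epithelial-mesenchymal transition lists include the 24% of all genes. The median distal DNA per gene was above the 0.0486 Mb of all genes in 7 of the 10 lists, the exceptions being the Notch, epithelial and H3K9 lists. Because density fell with distance from the TSS, the densities of lists that differ in distal DNA per gene are not like for like.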

How the data were processed

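Reads of KDM3B and H3K9me2 ChIP were aligned by the authors to hg19 with Bowtie, per the submitters' processing notes and the study's methods, and only reads at a unique position were retained. Windows of 100 bp were called against input by a Poisson p-value. The authors deposited 1 list of regions per ChIP library, each region with its position and a score of unstated meaning. Library depth is not in the lists. No column of other samples was present.

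Overlaps, distances and shares were computed with Python 3.11.15, numpy 2.4.6, pandas 2.3.3 and scipy 1.17.1, and sequences were read from hg19 with pysam 0.24.0. Genes came from GENCODE release 44 lifted to hg19, with 89204 protein-coding transcripts of 19821 genes. Distal DNA is all assembled DNA more than 10 kb from their TSSs (2357 Mb). GC-weighted motif shares used bins of 2 percentage points. Routines were checked on simulated regions.

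The members, the 10 gene lists and the motifs were chosen with earlier results of these data known. The regions and genes named were the 10 of highest score, the 5 widest beyond these, the 5 stretches with most members, the 10 genes nearest to most members, genes of the lists, and those next to each limit, of which 1 region is not reported here. Sequences were taken from the regions so named, and not all are printed. Alternatives changed each limit of the selection, required a score above the median or 2 windows, or equalised the lists.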

Additional observations from a re-analysis of the deposited data

How the results depend on the processing

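There was a single library per condition, depth is unknown, the meaning of the score is unstated, and regions missed in the depleted library are not detectable as such. Over 9 alternatives for each of 8 values (72 in all), 37 stayed within the counting interval of the value or within 1.5 times of the count, and 35 moved. The causes were not tested beyond what each alternative removes. The number of regions, 6335, was 2957 at 50 kb from a TSS, 3793 with the TSSs of all transcripts, 2207 for scores above the median, 2006 with equal numbers of regions and 2029 with 2 or more windows. The number of nearest genes, 3986, was then 1844, 2632, 1786, 1649 and 1669. The share in introns of protein-coding genes, 37.8%, was 39.1% at 5 kb, 29.7% at 50 kb, 36.3% for scores above the median, 35.9% with equal numbers and 36.4% with 2 or more windows. The median TSS distance, 45.5 kb, was 36.5 kb at 5 kb, 111 kb at 50 kb, 53.2 kb with all TSSs and 52 kb with H3K9me2 at least 10 kb away. The median GC content, 48%, was 47% at 50 kb, 47.7% with all TSSs, 49% when only H3K9me2 overlap was refused and 47% with H3K9me2 10 kb away. The share with control H3K9me2 within 1 kb, 0.363%, was 0.702% when only overlap was refused, 0.136% for scores above the median, 0.15% with equal numbers and 0.197% with 2 or more windows. The share with AP-1, 18.5%, was 20.5%, 20.6% and 20.9% under the last 3 of these. The share with TCF/LEF, 14.9%, was 16.8%, 17% and 16.1% under the same 3, 16.8% at 50 kb and 16.3% with H3K9me2 10 kb away. With equal numbers of regions, AP-1 was in 20.6% of lost and 10.9% of kept distal regions and CTCF in 14.3% and 20.2%, a comparison chosen after seeing the data. No paired analysis was possible because each group holds a single library.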
